A study of Mus musculus with 8 samples.

Results

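The forkhead box (Fox) genes encode transcription factors that share a winged-helix DNA-binding domain, the forkhead domain, and are sorted into subfamilies named by letters, from FOXA to FOXS. All genes whose symbol has the form Fox, a letter from a to s and a number were taken, 44 of the 33641 gene symbols measured, and no expression value entered this choice. Forkhead factors bind DNA by placing one helix of the domain, the recognition helix, in the major groove, and they act as activators, repressors or openers of closed chromatin. In the lung, Foxf1 is known as a factor of endothelial and mesenchymal cells, FOXA and FOXP proteins as factors of the airway and alveolar epithelium, FOXO proteins as factors held out of the nucleus by AKT, and Foxm1 as the activator of genes needed for mitosis.

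The values come from RNA-seq of tumor endothelial cells (TECs), sorted by FACS as CD45-CD31+ cells out of microdissected lung tumors on day 21. The tumors were orthotopic: mCherry-labeled Lewis lung carcinoma (LLC) cells, which derive from a lung tumor of a C57Bl/6 mouse, were injected into the left lung of mice aged 6 to 8 weeks. The 4 libraries H1 to H4 are from endFoxf1+/- mice, which carry Pdgfb-CreER and a single floxed Foxf1 allele (Foxf1 fl/+), and the 4 libraries C1 to C4 are from control mice, single-transgenic Foxf1 fl/+ or Pdgfb-Cre littermates without further distinction in the labels. Both groups received tamoxifen (Tam), which activates the Cre recombinase in Pdgfb-expressing endothelial cells. There it removes exon 1 of the floxed Foxf1 allele, and the other Foxf1 allele stays intact. Each library has its own number in the labels. These do not state whether cells of several mice were pooled, so the p-values below measure the spread between these samples.

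For each library the authors deposited TPM, an abundance per gene that is divided by transcript length and scaled to the same total in every library. TPM can therefore be compared between Fox genes, but they keep no trace of read depth, and low values have an unknown counting error. The libraries were unequal in their endothelial content. The geometric mean of 20 endothelial markers was 83.9 to 107% of the control mean in C1 to C4, 103% in H1, 107% in H2, 56.1% in H4 and 5.34% in H3. Across genes, the median correlation of H3 with the other libraries was 0.795 and that of H4 was 0.892, against 0.958 to 0.968 for the remaining 6 libraries. In bulk samples, fewer cells of a type and less RNA per cell cannot be told apart. Log2 differences of Fox genes that rest on H3 are given with and without it. Most counts over gene lists are given only over all libraries.

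The recognition helix is shown because it is alike across much of the family. Its core of 8 residues was found in 43 of the 44 genes, all but Foxr1, in the longest coding sequence of GENCODE vM21 on GRCm38. Arginine and histidine stood at the centre, followed by asparagine, or by serine in Foxa1, Foxa2 and Foxa3, and then by leucine. Isoleucine or phenylalanine in the place of leucine was allowed in the search, but no segment had it. The 24 coding bases are shown for Foxf1, for its paralog Foxf2, and for a member of the FOXC and of the FOXM subfamily. Capitals mark bases that differ from Foxf1.
Foxf1: aactccgtgcgccacaacctgtcg
Foxf2: aactccgtgcgccacaacctCtcg
Foxc1: aacAGcAtAcgGcacaacctCtcg
Foxm1: aactcTAtTcgTcacaacctTtcT
The Foxf1 segment lies at chr8:121084678-121084701 on the plus strand, within exon 1 of 2, the exon that the recombination removes. Foxf2 shared 23 of the 24 bases, and Foxc1 and Foxm1 shared 18 each. The segment did not track relatedness: Foxq1 had the same 24 bases as Foxf2, at 59.1% amino acid identity to Foxf1 over the aligned stretch, and Foxn1 to Foxn4 had the 8 residues of Foxf1, at 45.2 to 48.4% identity. Over the 282 coding bases around this segment, Foxf1 and Foxf2 were equal at 262 (92.9%). How reads of these paralogs were assigned was not examined. Gene-level TPM join all exons of a gene, so RNA from the remaining exon of a recombined allele, if it is made, is counted with that of the intact allele.

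Of the 44 members, 20 (45.5%) reached 1 TPM in at least 4 libraries, close to the 44.5% of all genes that did, and only these were tested. Foxf1 and Foxp1 were the most abundant forkhead transcripts in control TECs, at 281 ± 49.5 TPM and 217 ± 62.1 TPM (SD, n = 4). Together they made up 61.7 to 64.0% of the summed Fox TPM of a control library. Foxj3 followed at 57.5 ± 3.68 TPM, and Foxp2, Foxk1, Foxn3, Foxo3, Foxj2, Foxk2 and Foxo1 had control means between 32.9 and 21.1 TPM. Foxn2 came next at 17.0 ± 2.94 TPM and Foxm1 at 7.15 ± 1.17 TPM. The remaining 8 tested genes, Foxo4, Foxa2, Foxa1, Foxp4, Foxf2, Foxc1, Foxr1 and Foxs1, had control means of 4.53 TPM or less.

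The order of neighbours in this ranking held in every control library for 7 of 19 pairs, and in all 8 libraries for 4. The 4 pairs were Foxp1 over Foxj3, Foxj3 over Foxp2, Foxn2 over Foxm1, and Foxm1 over Foxo4. Between Foxp2 and Foxo1 no pair of neighbours kept its order in all control libraries, so neighbours in this stretch did not differ beyond their spread. Members further apart in it could differ: the control values of Foxk1 (28.0 to 32.8 TPM) and Foxn3 (27.1 to 33.5 TPM) all lay above those of Foxo1 (17.1 to 23.4 TPM). Foxf1 exceeded Foxp1 in 3 of 4 control libraries and in 1 of 4 endFoxf1+/- libraries.

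**Figure D1:**
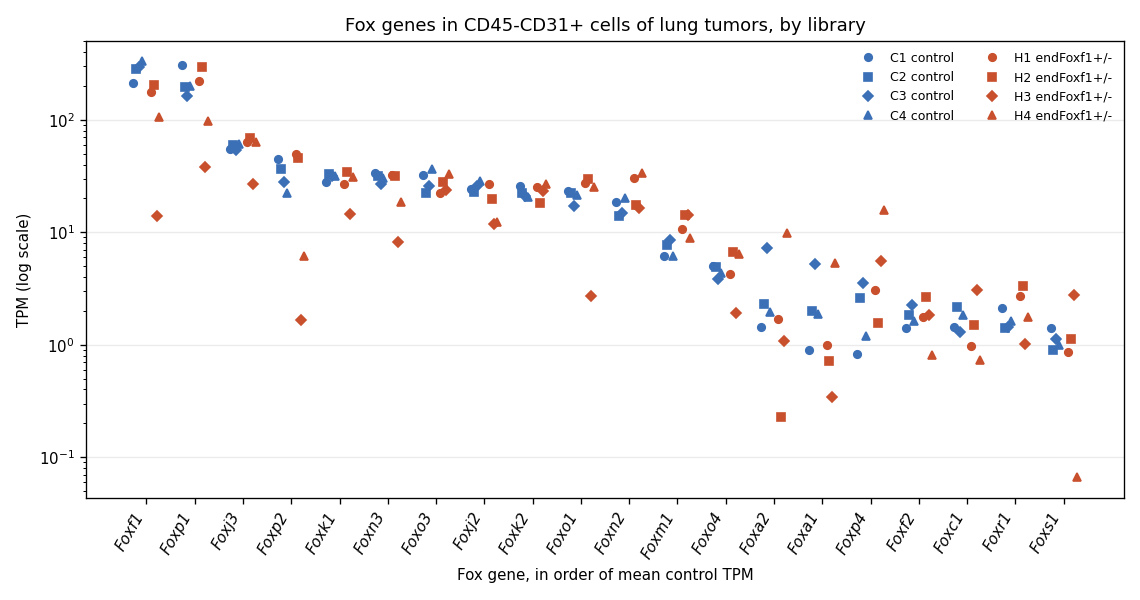
TPM on a log scale for the 20 tested Fox genes, ordered by their control mean, with one point per library (blue for control, red for endFoxf1+/-, the shape giving the library number). Foxf1 and Foxp1 stand above the rest in every library but H3, all 4 Foxf1 points of the endFoxf1+/- group lie below those of the control group, and library H3 is the lowest point for Foxf1, Foxp1, Foxp2 and Foxo1.

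Foxf1 (ENSMUSG00000042812, chr8:121084386-121088144), the targeted gene, was lower in every endFoxf1+/- library than in every control library, as were 2.31% of all tested genes. It measured 213 TPM in C1, 285 in C2, 296 in C3 and 331 in C4, against 177 in H1, 203 in H2, 14.04 in H3 and 105 in H4. The groups did not overlap, but the highest endFoxf1+/- library, H2, lay next to the lowest control library, C1, and H3 stood far below the rest of its group. The means were 281 ± 49.5 and 125 ± 84.6 TPM (SD, n = 4 each), so that the endFoxf1+/- mean was 44.3% of the control mean. An exact two-sided permutation test on log2(TPM + 1) gave p = 0.0286, the minimum possible with 4 libraries in each group. In limma, fitted over all 14964 tested genes, the log2 difference was -1.68 ± 0.72 (SE; 95% interval -3.30 to -0.05) with an unadjusted p of 0.0443 and an adjusted p of 0.790.

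Library H3 set much of the size of this difference. Without H3 the log2 difference of Foxf1 was -0.83 ± 0.25 (SE; 95% interval -1.41 to -0.25), with an adjusted p of 0.580 from limma and p = 0.0571 in the exact permutation test, the minimum possible with 4 libraries against 3. The 3 remaining endFoxf1+/- libraries held 62.9% (H1), 72.1% (H2) and 37.4% (H4) of the control mean. With limma's array weights, which gave H3 the lowest weight, the log2 difference over all libraries was -0.70 ± 0.21 (SE).

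Set against Pecam1, which encodes the CD31 used for the sort, Foxf1 was lower by less over all libraries, but not once H3 and H4 were left out. The control libraries C1 to C4 had 16.5, 23.8, 27.9 and 22.01 Foxf1 TPM per 100 Pecam1 TPM, and H1 to H4 had 12.99, 14.5, 18.1 and 11.5. H3, the lowest library in TPM, was the highest of its group on this scale and lay above C1, so the groups overlapped. The log2 difference relative to Pecam1 was -0.63, with p = 0.0571 in the exact two-sided permutation test, beside -1.68 in TPM. The overlap rested on H3. Without it H1, H2 and H4 all lay below C1, and the log2 difference relative to Pecam1 was -0.77 (exact p = 0.0571, the minimum possible with 4 libraries against 3), beside -0.83 in TPM. Without both H3 and H4 it was -0.69, beside -0.55 in TPM. Relative to the mean of the 20 endothelial markers the limma estimate was -0.48 ± 0.63 (SE) over all libraries. None of these passed the threshold. Within the family, Foxf1 held 25.7, 36.8, 39.7 and 39.9% of the summed Fox TPM in C1 to C4, and 24.1, 24.5, 6.37 and 20.8% in H1 to H4.

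**Figure D2:**
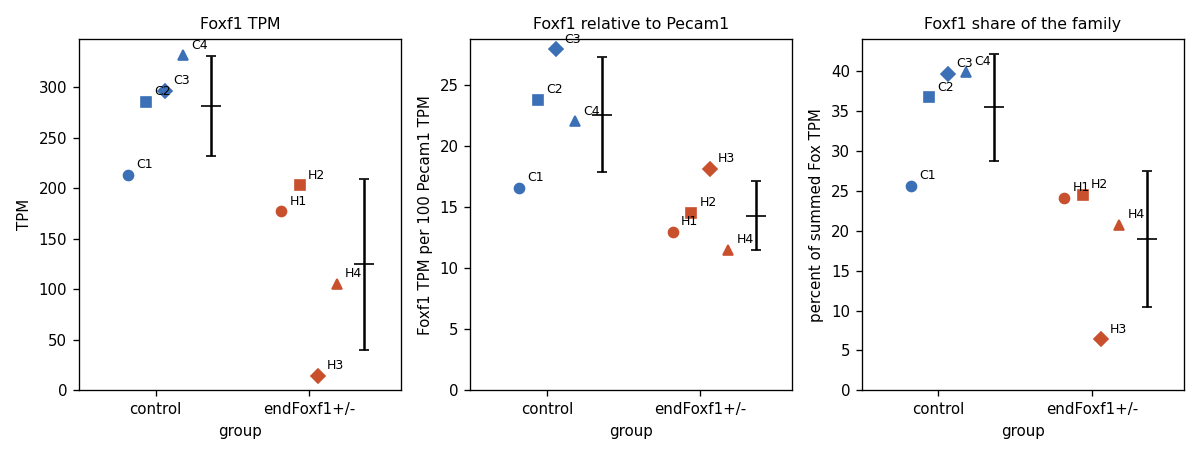
Foxf1 in each library as TPM, as TPM per 100 Pecam1 TPM and as a percent of the summed TPM of the 44 Fox genes, with the mean and SD (n = 4) of each group beside the points. The groups are separate in TPM (213 to 331 against 14.04 to 203), overlap relative to Pecam1, where H3 at 18.1 lies above C1 at 16.5, and are narrowly separate as a share of the family.

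Foxf1 sits in a cluster of forkhead genes, and neither of its forkhead neighbours reached 1 TPM. Foxc2 (chr8:121116171-121118895), a factor of lymphatic and venous valve endothelium, and Foxl1 (chr8:121127940-121130644), a factor of gut mesenchyme, lie downstream on the same strand, with Mthfsd between Foxf1 and Foxc2. Foxc2 was highest at 0.583 TPM in C2 and Foxl1 at 0.264 TPM in H3. Of 10 genes listed for this locus, Foxc2 and Foxl1 among them, 7 were tested, 3 were lower and 4 higher, and 0 had an unadjusted p under 0.05, where 2.77% of all tested genes did in the lower and 2.82% in the higher direction. The lncRNA Fendrr next to Foxf1 was not analysed here. The annotated gene Gm20388 spans Foxf1, Foxc2 and Foxl1 on the same strand, so their reads could be split. Its TPM were 10.6 to 15.7 in the control libraries and 17.4, 14.3, 11.5 and 2.67 in H1 to H4, small beside Foxf1 in every library but H3.

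The paralog Foxf2, best known from pericytes and mesenchyme, was low in both groups. Its values were 1.40, 1.85, 2.25 and 1.61 TPM in C1 to C4 and 1.78, 2.66, 1.85 and 0.814 TPM in H1 to H4. The groups overlapped, and the log2 difference was -0.04 ± 0.29 (SE; 95% interval -0.68 to 0.61). The second forkhead cluster, on chromosome 13, joins Foxf2 to Foxq1 and to Foxc1, a factor of vessel and eye development. Foxc1 measured 1.30 to 2.19 TPM in the control libraries and 0.734 to 3.06 TPM in the endFoxf1+/- libraries, with a log2 difference of -0.14 ± 0.32 (SE), and -0.39 ± 0.24 without H3. Its highest value was in H3 and its lowest in H4. Foxs1, a gene of perivascular cells, measured 0.897 to 1.40 TPM in the control libraries and ranged from 0.0663 in H4 to 2.77 in H3 in the endFoxf1+/- group (log2 difference -0.07 ± 0.38, SE, and -0.37 ± 0.29 without H3). Summed markers of pericytes and smooth muscle were 69.0 to 102 TPM in the control libraries and 85.5, 68.8, 40.2 and 42.5 in H1 to H4, with 7 of 8 tested markers lower and Rgs5 and Myh11 below every control library, where 68.0% of all tested genes were lower and 2.31% below every control library. Their part in the levels of Foxf2, Foxc1 and Foxs1 was not tested.

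Genes linked to FOXF1 or FOXC proteins in endothelium were counted beside the factors. All 11 genes of the FOXF1-linked list, among them the Wnt receptor Fzd4, the sphingosine receptor S1pr1 and the VEGF receptor Kdr, had a lower mean log2 level in endFoxf1+/- TECs, where 68.0% of all tested genes did. Their median log2 difference was -1.19, and -0.21 without H3, beside -0.17 and 0.01 for all tested genes. None of them had an unadjusted p under 0.05, beside 2.77% of all tested genes in that direction, and 5 of the 11 are also among the 20 endothelial markers that were low in H3. Of the FOXC-linked list, 5 of 6 were tested and 4 were lower. The exception was Cxcr4, a chemokine receptor, at 15.9 to 22.7 TPM in the control libraries and 32.6, 30.4, 20.6 and 51.4 TPM in H1 to H4. Its log2 difference was 0.70 ± 0.29 (SE; limma unadjusted p = 0.0377, adjusted p = 0.790). At an unadjusted p under 0.05, 2.82% of all tested genes were higher.

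Foxm1 (ENSMUSG00000001517, chr6:128362967-128376146), which activates the genes of G2 and mitosis, was the only tested member above every control library in all 4 endFoxf1+/- libraries, as were 2.73% of all tested genes. It measured 6.14, 7.78, 8.49 and 6.19 TPM in C1 to C4 and 10.8, 14.1, 14.2 and 8.91 TPM in H1 to H4. The groups did not overlap, although H4 lay close to C3. The means were 7.15 ± 1.17 and 12.02 ± 2.62 TPM (SD, n = 4 each), the endFoxf1+/- mean being 168% of the control mean. The log2 difference was 0.66 ± 0.25 (SE; 95% interval 0.10 to 1.23), with an unadjusted p of 0.0260 and an adjusted p of 0.790 from limma, and p = 0.0286 in the exact two-sided permutation test. It was 0.58 ± 0.22 without H3 and 0.72 ± 0.20 without both H3 and H4.

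Genes that FOXM1 is known to activate were measured in the same libraries. Of 16 mitotic targets, all tested, 15 were higher in the endFoxf1+/- group, where 32.0% of all tested genes were. Their median log2 difference was 0.78 over all libraries and 0.38 without H3, beside -0.17 and 0.01 for all tested genes. Unadjusted p was under 0.05 for 5 of the 16 targets, all higher, where it was for 2.82% of all tested genes. These were Plk1, Bub1, Mki67, Cenpf and Ccnb1, and none passed adjustment. Mki67, the proliferation marker, measured 14.04, 12.8, 12.8 and 16.5 TPM in C1 to C4 and 27.4, 24.2, 56.6 and 19.4 TPM in H1 to H4. Plk1, a mitotic kinase, measured 3.24, 1.59, 1.53 and 2.52 TPM and 6.17, 4.13, 13.2 and 7.95 TPM. Bub1, a kinase of the spindle checkpoint, measured 2.99, 3.90, 2.71 and 3.06 TPM and 4.26, 5.87, 14.9 and 12.4 TPM. These 3 genes were above every control library in all endFoxf1+/- libraries. The paper stained tumor sections for Ki-67, the protein of Mki67, which is an unlike measure. It found low endothelial proliferation, and the share of Ki-67-positive endothelial cells did not differ significantly between the genotypes. The summed TPM of the list was 133 to 154 in the control libraries, 261 in H1, 244 in H2, 485 in H3 and 128 in H4, so that H4 alone lay below the control range.

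A list of FOXM1 partners joined the subunits of MuvB, a complex that binds promoters of cell cycle genes, to Mybl2, which also binds it, to E2f1, and to the kinases Cdk1 and Cdk2 with the cyclin Ccna2. Of 10 genes, all tested, 7 were higher, beside 32.0% of all tested genes, and 3 of these had an unadjusted p under 0.05, beside 2.82% in that direction. The 3 were Mybl2, Cdk1 and Ccna2. Their log2 differences were 0.79, 0.93 and 0.92 over all libraries, and 0.53, 0.55 and 0.61 without H3. Of the 5 MuvB subunits, Lin9, Lin37, Lin52, Lin54 and Rbbp4, 3 were higher and 2 lower, and 0 had an unadjusted p under 0.05. Ccna2, which encodes cyclin A2, measured 8.65 to 10.7 TPM in the control libraries and 20.8, 16.4, 38.8 and 11.2 TPM in H1 to H4. It and Lin9 were above every control library, as were 2.73% of all tested genes.

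Markers of cells outside the CD45-CD31+ gate were measured in the same libraries, and the lists differed in direction. Of 11 tested epithelial markers, 10 were lower in the endFoxf1+/- group, where 68.0% of all tested genes were. Of 20 leukocyte markers, 18 were higher in the endFoxf1+/- group, where 32.0% of all tested genes were. The median log2 difference of the 20 markers was 1.26, and 0.51 without H3. Their summed TPM, most of it Lyz2 in every library, were 1564 to 5339 in the control libraries, 2870 in H1, 2217 in H2, 11144 in H3 and 4904 in H4, so the sums of H1, H2 and H4 lay within the control range. Taken one by one, 11 of the 20 markers in H1, 14 in H2, 18 in H3 and 5 in H4 were above every control library, beside 35.8%, 34.9%, 16.8% and 24.2% of all tested genes. Cd68 and Spi1 were above every control library in all 4 endFoxf1+/- libraries, as were 2.73% of all tested genes. Of 8 tested fibroblast markers, 6 were higher, against the same 32.0%, and their sums, 39.4 to 99.9 TPM in the control libraries and 171, 114, 1315 and 299 TPM in H1 to H4, did not overlap. No marker of these lists was at 0 in all libraries. Their part in the levels of Foxm1 and of its targets was not tested.

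**Figure D3:**
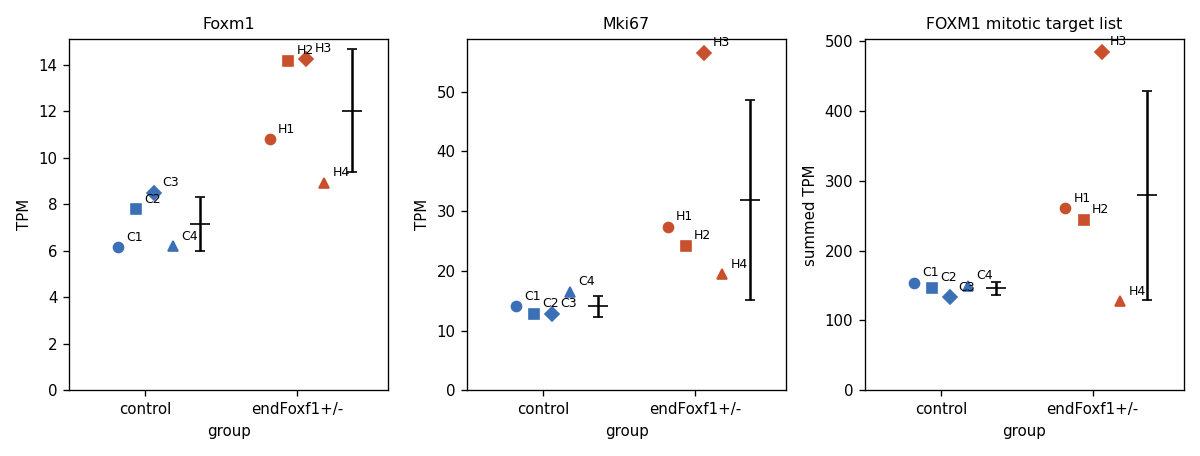
TPM of Foxm1, TPM of Mki67 and the summed TPM of 16 FOXM1 mitotic target genes in each library, with the mean and SD (n = 4) of each group beside the points. Foxm1 (6.14 to 8.49 against 8.91 to 14.2) and Mki67 are higher in all 4 endFoxf1+/- libraries, while the sum of the list in H4, at 128, lies below the control range of 133 to 154.

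The FOXP genes encode repressors that bind DNA as dimers. Foxp1 (chr6:98925338-99522721) measured 307, 196, 164 and 199 TPM in C1 to C4 and 221, 293, 38.4 and 98.6 TPM in H1 to H4. H1 and H2 lay within the control range and H3 and H4 below it. The log2 difference was -0.74 ± 0.57 (SE), and -0.18 ± 0.37 without H3. Foxp2, known from the nervous system and the distal lung epithelium, measured 44.7, 36.7, 27.8 and 22.6 TPM in C1 to C4 and 49.9, 46.2, 1.67 and 6.20 TPM in H1 to H4. It was above every control library in H1 and H2 and far below in H3 and H4, with a log2 difference of -1.17 ± 0.87 (SE), and -0.35 ± 0.65 without H3. In H3, Foxf1 at 4.99% and Foxp2 at 5.06% of their control means lay at the 5.34% of the endothelial markers, whereas Foxp1 was at 17.7%.

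Foxp4, a factor of the airway epithelium, had the largest positive log2 difference of the tested members, 1.03 ± 0.57 (SE; 95% interval -0.24 to 2.30), but its groups overlapped. It measured 0.835, 2.58, 3.54 and 1.19 TPM in C1 to C4 and 3.07, 1.56, 5.56 and 15.7 TPM in H1 to H4. H4 was the highest, and without H4 the log2 difference was 0.52 ± 0.44 (SE). Among 10 corepressors and partners of FOXP proteins, 9 were tested and 0 had an unadjusted p under 0.05, beside 5.59% of all tested genes. The corepressor Ctbp1 was below every control library, as were 2.31% of all tested genes, at 44.2 to 48.8 TPM against 42.5, 32.9, 20.6 and 39.6 TPM in H1 to H4.

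The FOXO genes encode factors of stress resistance and quiescence that insulin and growth factor signals hold inactive. Foxo1, required for vessel formation, measured 23.4, 22.2, 17.1 and 21.6 TPM in C1 to C4 and 27.5, 29.6, 2.69 and 25.1 TPM in H1 to H4. It was above every control library in H1, H2 and H4 and at 12.8% of the control mean in H3, so the log2 difference turned from -0.36 ± 0.62 (SE) over all libraries to 0.37 ± 0.17 without H3. Foxo3 measured 32.1, 22.5, 25.8 and 36.3 TPM in C1 to C4 and 22.4, 28.0, 23.8 and 33.1 TPM in H1 to H4. The groups overlapped almost fully, H3 included, with a log2 difference of -0.11 ± 0.24 (SE; 95% interval -0.64 to 0.42). Foxo4 was low, at 3.88 to 4.98 TPM in the control libraries and 1.91 to 6.64 TPM in the endFoxf1+/- libraries, with a log2 difference of -0.02 ± 0.34 (SE), and 0.28 ± 0.22 without H3.

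Regulators and targets of the FOXO factors were counted next. Of 10 regulators, among them Akt1, Sgk1 and Sirt1, 5 were lower and 5 higher, and of 18 target genes 9 were lower and 9 higher, where 68.0% of all tested genes were lower. In either list 0 had an unadjusted p under 0.05, beside 5.59% of all tested genes. The median log2 differences were 0.01 for the regulators and 0.01 for the targets, and 0.21 and 0.19 without H3, beside -0.17 and 0.01 for all tested genes in these fits. Klf2, a flow-induced endothelial factor and the target with the lowest log2 difference, measured 260 to 420 TPM in the control libraries and 361, 250, 49.9 and 127 TPM in H1 to H4.

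The broadly expressed Foxj3, Foxk1, Foxn3, Foxj2 and Foxk2 varied least among the control libraries, with a coefficient of variation of 6.40 to 10.8%. Foxj3 (chr4:119537004-119629119), an activator of muscle genes, measured 55.0, 59.5, 53.8 and 61.6 TPM in C1 to C4 and 64.1, 69.5, 26.9 and 63.1 TPM in H1 to H4. H1, H2 and H4 lay above every control library and H3 below, so the log2 difference was -0.12 ± 0.31 (SE) with H3 and 0.19 ± 0.13 without it. Its relative Foxj2 measured 24.4, 22.7, 26.0 and 28.4 TPM in C1 to C4 and 26.8, 19.8, 11.8 and 12.2 TPM in H1 to H4. H1 lay in the control range and the other values below it (log2 difference -0.57 ± 0.29, SE, and -0.41 ± 0.25 without H3).

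Foxk1 and Foxk2 encode regulators of glycolysis and autophagy genes. Foxk1 measured 28.0, 32.8, 31.9 and 31.4 TPM in C1 to C4 and 26.6, 34.2, 14.6 and 31.0 TPM in H1 to H4. Foxk2 measured 25.9, 22.3, 21.0 and 20.6 TPM in C1 to C4 and 25.2, 18.2, 23.1 and 26.8 TPM in H1 to H4. Foxk2 in H3 was within its control range (log2 difference 0.05 ± 0.21, SE; 95% interval -0.44 to 0.53), whereas Foxk1 had its lowest value there (-0.28 ± 0.28, SE, and -0.02 ± 0.15 without H3). Foxn3, a repressor tied to the cell cycle checkpoint, measured 33.5, 31.9, 27.1 and 30.4 TPM in C1 to C4 and 32.1, 31.5, 8.18 and 18.8 TPM in H1 to H4. Its values in H1 and H2 lay within the control range, and the log2 difference was -0.59 ± 0.39 (SE), and -0.19 ± 0.21 without H3. Foxn2, of the same subfamily, measured 18.6, 14.1, 14.9 and 20.2 TPM in C1 to C4 and 30.6, 17.5, 16.4 and 33.9 TPM in H1 to H4. It was above every control library in H1 and H4 and inside the range in H2 and H3, with a log2 difference of 0.46 ± 0.29 (SE) and 0.62 ± 0.26 without H3 (limma unadjusted p = 0.0412, adjusted p = 0.689). Without H4 it was 0.29 ± 0.28 (SE).

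Foxa1 and Foxa2, pioneer factors of endoderm and of the lung epithelium, were highest in the 2 libraries with the highest epithelial markers. Foxa2 measured 1.45 to 2.28 TPM in C1, C2 and C4 and 7.31 TPM in C3, and 1.68, 0.229, 1.08 and 9.78 TPM in H1 to H4. Foxa1 had its highest values in the same libraries, 5.26 TPM in C3 and 5.32 TPM in H4, and 0.340 to 1.98 TPM elsewhere. The summed TPM of 12 epithelial markers were 30939 in C3 and 23408 in H4, against 1569 to 10377 in the other libraries. The groups overlapped for both genes (log2 differences -0.45 ± 0.54 for Foxa1 and -0.36 ± 0.66 for Foxa2, SE). Single libraries moved these values: for Foxa1 the log2 difference was -0.19 without H3, -0.13 without C3, -0.70 without C1 and -0.94 without H4, and for Foxa2 -0.19 without H3, 0.0265 without C3, 0.0623 without H2, -0.56 without C1 and -0.98 without H4. Foxj1, the master factor of motile cilia, reached 1 TPM in C3 alone, at 2.09 TPM, and stayed under it elsewhere. The summed ciliated cell markers were highest in C3 too, at 327 TPM against 125 to 245. Most of this sum was Tppp3 in every library, at 260 TPM in C3. The single markers were split: Tppp3, Ccdc153, Rsph1, Rfx2 and Dynlrb2 were highest in C3. Dnah5, Tekt1 and Ccdc39 were highest in H4, Dnah9 in C2 and Mcidas in H1. The part of these cells in the Foxa1, Foxa2 and Foxj1 levels was not tested.

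The remaining members were near or at 0. Foxr1 was tested, at 1.42 to 2.13 TPM in the control libraries and 1.01 to 3.30 TPM in the endFoxf1+/- libraries. A further 14 members were above 0 in a library and never reached 1 TPM (highest value 0.993, Foxn4 in C3). They were Foxa3, Foxb1, Foxc2, Foxd1, Foxd2, Foxd4, Foxh1, Foxl1, Foxn1, Foxn4, Foxo6, Foxp3, Foxq1 and Foxr2. Foxp3, the defining factor of regulatory T cells, was highest in H3 at 0.938 TPM. Of 6 regulatory T cell markers, Il2ra (1.70 TPM), Ctla4 (5.48), Ikzf2 (3.09), Cd4 (5.38) and Cd3e (14.2) were also highest in H3, and their sum with Tnfrsf18 was 37.01 TPM there against 9.58 to 24.1 TPM elsewhere. Tnfrsf18, at 7.14 TPM, lay within its control range, and Cd3d of the leukocyte list, at 7.91 TPM, lay below its control range of 8.84 to 12.1 TPM. Their part in the Foxp3 level was not tested. The other 8, Foxb2, Foxd3, Foxe1, Foxe3, Foxi1, Foxi2, Foxi3 and Foxl2, known from the nervous system, neural crest, thyroid, lens, ionocytes and ovary, were listed at 0 in every library.

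Over the tested members, the comparison called few. At an adjusted p under 0.05 there were 0 of 20 members, and likewise 0% of all 14964 genes (limma with Benjamini-Hochberg adjustment, smallest adjusted p of any gene 0.305). At an unadjusted p under 0.05 there were 2 members, Foxf1 and Foxm1, where 5.59% of all genes passed. Below every control library was 1 member, Foxf1, where 2.31% of all genes were, and above every control library 1 member, Foxm1, where 2.73% were. Of the 20 members, 15 were lower and 5 higher, with 68.0% of all genes lower, and their median log2 difference was -0.13 beside -0.17 for all genes. Scaling by the median ratio moved the median of all genes to -0.01, and 9 members were then lower and 11 higher. The members' counts are small, and no set test was run on them.

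These counts turned on single libraries. The members at an unadjusted p under 0.05 numbered 0 without C1 or without C4, 1 without C2, C3 or H4, and 2 without H2. They numbered 3 without H1 and 3 without H3. In the fit without H3, Foxn2 joined Foxf1 and Foxm1, and 7.18% of all genes passed. The share of all genes was not taken for the other libraries left out. Without H3, 1 member was below every control library (Foxf1, 2.6% of all genes) and 3 were above (Foxj3, Foxm1 and Foxo1, 6.5% of all genes).

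**Figure D4:**
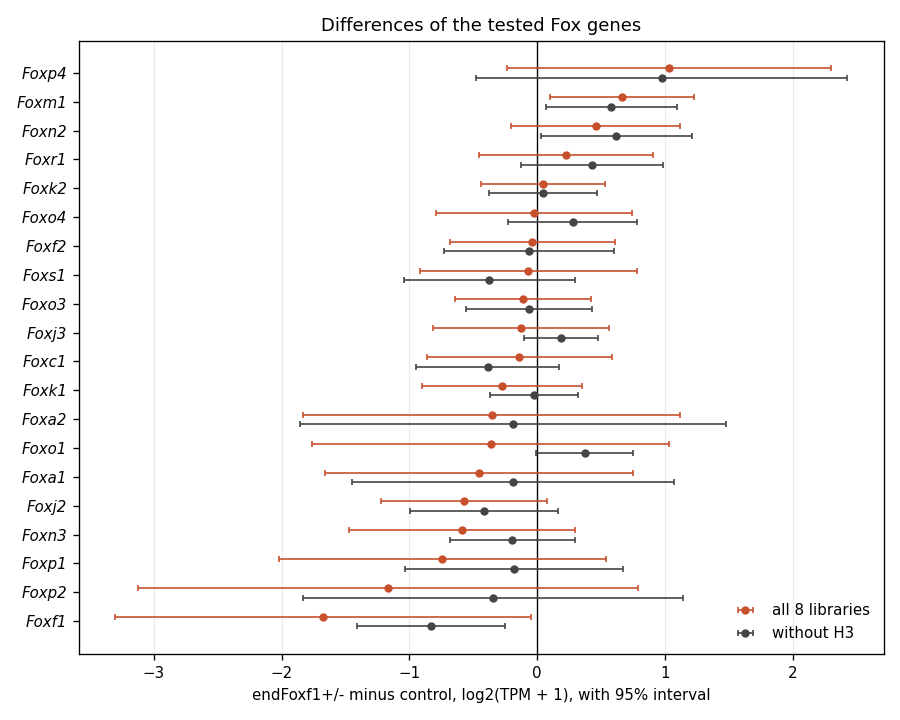
Log2(TPM + 1) in endFoxf1+/- minus control TECs for the 20 tested Fox genes, with 95% intervals from limma, over all 8 libraries (red) and without H3 (dark). The intervals of Foxf1 and Foxm1 exclude 0 in both fits, Foxf1 moves from -1.68 to -0.83 without H3, and Foxo1, Foxj3 and Foxo4 turn from below to above 0.

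The same split can be read library by library. Of the 20 tested members, 12 were below every control library in H3, 8 in H4 and 5 each in H1 and H2, where 68.2%, 49.4%, 10.4% and 12.5% of all tested genes were. Above every control library were 4 members in H3, 9 in H4, 6 in H1 and 8 in H2, beside 16.8%, 24.2%, 35.8% and 34.9% of all genes. In H3, whose endothelial markers were at 5.34% of the control mean, the members spread over a wide range. Foxf1, Foxp2, Foxo1, Foxa1 and Foxp1 were at 4.99 to 17.7% of their control means. Foxn3, Foxa2, Foxo4, Foxj2, Foxj3, Foxk1 and Foxr1 were at 26.6 to 61.3%, and Foxo3, Foxn2, Foxk2 and Foxf2 at 81.6 to 104%. Foxc1, Foxm1, Foxs1 and Foxp4 were at 181 to 273%. In H4, with endothelial markers at 56.1%, Foxs1 was at 6.01%, Foxp2 at 18.8% and Foxf1 at 37.4%, while Foxk1 was at 99.99% and Foxp4 at 773%. In H1 and H2, where the endothelial markers were at their control level, Foxf1 was at 62.9 and 72.1%, Foxp1 at 102 and 135%, and Foxm1 at 151 and 198%.

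**Figure D5:**
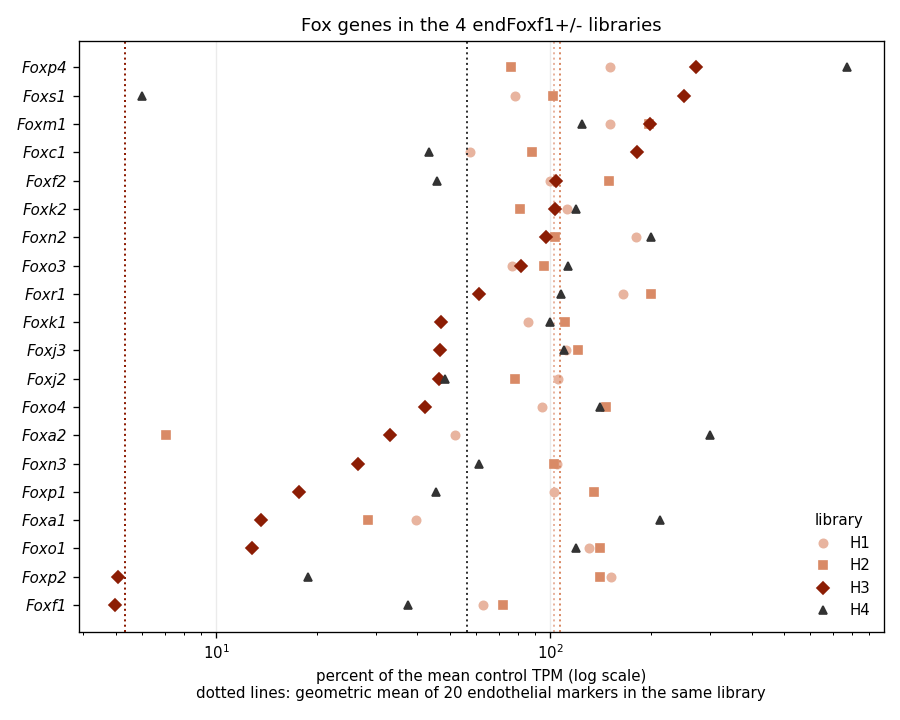
Level of each tested Fox gene in the 4 endFoxf1+/- libraries as a percent of its mean control TPM, on a log scale, ordered by the value in H3, with dotted lines for the geometric mean of 20 endothelial markers in the same library (103, 107, 5.34 and 56.1% in H1 to H4). In H3 the points run from Foxf1 at 4.99%, on the line of the endothelial markers, to Foxp4 at 273%, and in H1 and H2 Foxf1 lies left of the lines.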

How the data were processed

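RNA-seq of CD45-CD31+ cells sorted from LLC tumors was analysed for 4 control and 4 endFoxf1+/- libraries. Groups came from the genotype in the labels, and the day, age and design from the study's methods. The authors deposited TPM per gene symbol for each library. The submitters' processing notes name TopHat, Cufflinks, Subread and DESeq2, without roles or versions, and GRCm38/mm10; the annotation behind the TPM is not given in the sources used here. Depth is unknown, so no counting error was computed, and precision rests on the spread between libraries. TPM were used as deposited, as log2(TPM + 1), in limma 3.58.1 (R 4.3.3; lmFit, eBayes with an intensity trend) over the 14964 genes with at least 1 TPM in at least 4 libraries, with Benjamini-Hochberg adjustment over all of them and a threshold of 0.05. The pseudocount of 1 understates changes of low genes. Exact two-sided permutation tests used all 70 assignments (SciPy 1.17.1). DESeq2 needs counts and was not run. The fit was tested on simulated data. Coordinates and sequences are from GENCODE vM21 on GRCm38, where all 44 members were found. Members, gene lists and the rule for named genes (tested members, by library at a mean of at least 5 TPM or without overlap between groups, otherwise by range) were chosen with earlier results of these data known; Foxa2, Foxf2 and Foxp4 are also given by library, as is Cxcr4, chosen after its values were seen. The 28 pairwise comparisons of libraries found 0 identical files. Alternatives were other pseudocounts, filters, scalings and weights, and libraries left out. The values of 1 member under the filter and the sequences of some members are not reported here.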

Additional observations from a re-analysis of the deposited data

Results flagged for a closer look

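A low value in library H3 stood apart from the other 3 endFoxf1+/- libraries for 2 members, by a gap over 0.829 of the group's range (Dixon's test at 4 samples). Foxj3 was at 26.9 TPM in H3, against 63.1 to 69.5 TPM in H1, H2 and H4. Foxo1 was at 2.69 TPM in H3, against 25.1 to 29.6 TPM. Chance gives about 1 such value in 20 groups and 40 groups were tested. H3 is also the library with the lowest endothelial marker level, at 5.34% of the control mean, and its part in these values was not tested.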

How the results depend on the processing

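No member passed at an adjusted p under 0.05 under any alternative. The members at an unadjusted p under 0.05 (2 as reported) were 4 with quantile normalization, 4 with array weights, 4 without both H3 and H4, 0 relative to endothelial markers, and 0 to 3 with one library left out. The whole set of 14964 genes moved too, from 836 genes passing as reported. It had 1050 with quantile normalization, 2866 with array weights, 1813 without both H3 and H4 and 357 relative to endothelial markers. The members below every control library (1) were 2 with no filter or median-ratio scaling, 0 with quantile normalization or relative to endothelial markers, and 1 to 2 with one library left out. The members above (1) were 2 with quantile normalization, 3 relative to endothelial markers, 5 without both H3 and H4, and 1 to 3 with one library left out. Shares of all genes below and above were taken only over all libraries (2.31% and 2.73%) and without H3 (2.6% and 6.5%). The median log2 difference (-0.13) was -0.32 at a minimum TPM of 5, 0.0467 with quantile normalization, 0.0461 with median-ratio scaling, 0.0744 with array weights, 1.07 relative to endothelial markers and 0.12 without both H3 and H4. It was -0.28 with a pseudocount of 0.1, and -0.21 to -0.0624 with one library left out. The median of all genes was 0.13 with array weights, 1.03 relative to endothelial markers and 0.14 without both H3 and H4. Foxf1 kept its direction throughout. Its log2 difference was -0.70 with array weights (exact p = 0.0286, from the unweighted values). Its log2 difference was -1.46 with quantile normalization, -0.48 relative to endothelial markers, -0.55 without both H3 and H4 and -2.08 to -0.83 with one library left out. The exact p was over 0.05 in these settings. With 1 library left out the smallest p possible is 0.0571. Without both H3 and H4 the exact p was 0.133, although H1 and H2 lay below every control library, the most extreme order possible. Except for these design limits, the cause was not tested.

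Foxm1, Foxn2, Foxp4 and Foxr1 kept their direction under every alternative run for them (a minimum TPM of 5 removes Foxp4 and Foxr1), and 15 members turned. Relative to endothelial markers, log2 differences turned to 0.75 (Foxa1), 0.84 (Foxa2), 1.06 (Foxc1), 1.16 (Foxf2), 0.63 (Foxj2), 1.08 (Foxj3), 0.92 (Foxk1), 0.61 (Foxn3), 0.84 (Foxo1), 1.09 (Foxo3), 1.18 (Foxo4), 0.46 (Foxp1), 0.0350 (Foxp2) and 1.13 (Foxs1). In that setting 97.4% of all tested genes were higher, with a median of 1.03 beside 1.07 for the members. These turns therefore did not set the members apart from other genes. Foxm1, Foxn2, Foxp4 and Foxr1 were already higher in the main fit. Quantile normalization and median-ratio scaling turned Foxc1 (0.0527, 0.0236), Foxf2 (0.18, 0.0882), Foxj3 (0.0406, 0.0686), Foxo3 (0.0535, 0.0834), Foxo4 (0.14, 0.12) and Foxs1 (0.27, 0.0765). Array weights turned Foxf2 (0.0917), Foxj3 (0.16), Foxn3 (0.0113), Foxo1 (0.36), Foxo4 (0.0924), Foxp1 (0.18) and Foxp2 (0.50). A pseudocount of 5 turned Foxo4 (0.0121) and Foxs1 (0.00764). Leaving out both H3 and H4 turned Foxf2 (0.21), Foxj3 (0.21), Foxk2 (-0.0591), Foxn3 (0.0501), Foxo1 (0.43), Foxo4 (0.20), Foxp1 (0.27) and Foxp2 (0.58). With one library left out, the log2 differences ranged from -0.98 to 0.0623 for Foxa2, -0.39 to 0.0224 for Foxc1, -0.19 to 0.15 for Foxf2, -0.26 to 0.19 for Foxj3, -0.0231 to 0.16 for Foxk2, -0.65 to 0.37 for Foxo1, -0.19 to 0.28 for Foxo4 and -0.37 to 0.23 for Foxs1. Depth is unknown from TPM, so low members have no detection limit. No paired analysis was possible because the labels give the groups no shared numbers.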
